A study of Mus musculus with 6 samples.

Results

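Translation initiation factors other than those of the eIF4 family were examined in sorted crypt epithelial cells of the mouse small intestine, in libraries from Apln knockout mice and from wild-type mice. The genes were chosen by symbol: protein-coding genes named Eif1, Eif2, Eif3, Eif5 or Eif6 with any further letters or digits, the Eif2ak kinases included and pseudogenes left out. This gave 39 of the 28564 gene identifiers in the count table. Symbols decided membership, but the genes were chosen with earlier results of these data known. Of the 39 genes, 38 passed the filter on low counts, and Eif5a2 did not.

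The study compared 3 Apln-/- samples with 3 wild-type control samples (C57Bl/6), all from male mice aged 13 weeks. Apln encodes apelin, a secreted peptide. Cells were freed with Liberase TL and sorted as live, EpCAM-positive and CD44-positive, without the endothelial marker CD31 and the blood-cell marker CD45. The sources used here do not give the deleted part of Apln or whether mice were pooled.

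Initiation sets a ribosome on the start codon of a messenger RNA. eIF2 brings the initiator tRNA to the small ribosomal subunit, and eIF3 binds that subunit and ties it to the messenger. eIF1 and eIF1A keep the small subunit scanning until a start codon is found, and eIF5 and eIF5B complete the joining of the large subunit. Phosphorylation of eIF2 by 4 kinases blocks its recycling by the exchange factor eIF2B, which lowers protein synthesis under stress. Crypt epithelium renews itself continuously and makes large amounts of protein.

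The knockout libraries held 23046880 to 25402259 counts and the wild-type libraries 24365754 to 26513481. The 5 most abundant entries took 77.3 to 78.9% of the counts in knockout and 70.7 to 75.3% in wild type, which left 5144725 to 5623112 and 6037237 to 7616648 counts for all other genes. The 39 genes together had 31197 to 33939 counts per knockout library and 34958 to 42838 per wild-type library. Apln had 0 counts in each knockout library, against 29, 7 and 5 in the wild-type libraries. The epithelial marker Epcam was at 292 to 338 CPM in knockout and 280 to 303 CPM in wild type, and Cd44 at 51.3 to 68.1 and 54.0 to 63.9 CPM. CPM are counts scaled to a common library total, with TMM scaling. Ptprc, which encodes CD45, had 27, 39 and 25 counts in knockout and 71, 96 and 69 in wild type. Pecam1, which encodes CD31, had 13, 1 and 7 counts in knockout and 33, 7 and 6 in wild type. Wild-type library 1 thus had the most counts of both Apln and Pecam1. Which cells the Apln reads came from was not tested. Markers of endothelium and blood cells were low: the 5 endothelial markers summed to 0.0923 to 0.938 CPM in knockout and 0.662 to 1.67 CPM in wild type, and the 7 blood-cell markers to 3.21 to 5.21 and 3.37 to 6.90 CPM. The 7 stromal markers summed to 9.85 to 33.96 CPM in knockout and 1.58 to 31.03 CPM in wild type. At an unadjusted p under 0.05, 2 of them were higher and 0 lower, against 7.53% and 7.66% of all genes. These 2 were also the only ones of the 7 with a log2 fold change above 0. Of the endothelial markers, Tie1 was at 0 in every knockout library and Cdh5 at 0 in every wild-type library.

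The promoters of 4 of the genes are shown because these genes marked both ends of the range: Eif3k had the lowest p among the genes that were higher in knockout and had a promoter entry, and Eif3a, Eif5b and Eif2ak2 are the genes with an unadjusted p under 0.05 that were lower. Each sequence runs from 250 bases before to 15 bases after the annotated start, 5′ to 3′ on the gene's strand, from RefSeq on GRCm38.p6. Capitals mark matches to the motifs named below.
Eif3k, chr7:28981874-28982138, minus strand: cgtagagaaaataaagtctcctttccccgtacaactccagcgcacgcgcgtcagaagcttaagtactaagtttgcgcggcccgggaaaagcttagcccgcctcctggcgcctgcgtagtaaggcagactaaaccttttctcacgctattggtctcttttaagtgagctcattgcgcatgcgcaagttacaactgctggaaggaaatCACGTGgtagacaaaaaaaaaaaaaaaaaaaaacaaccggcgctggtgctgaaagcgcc
Eif3a, chr19:60790679-60790943, minus strand: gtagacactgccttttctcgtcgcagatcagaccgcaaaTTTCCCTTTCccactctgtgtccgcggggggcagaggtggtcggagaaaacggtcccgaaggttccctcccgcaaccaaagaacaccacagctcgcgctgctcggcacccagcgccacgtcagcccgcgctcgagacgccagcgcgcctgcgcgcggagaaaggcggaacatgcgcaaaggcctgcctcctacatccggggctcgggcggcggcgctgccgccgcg
Eif5b, chr1:37997760-37998024, plus strand: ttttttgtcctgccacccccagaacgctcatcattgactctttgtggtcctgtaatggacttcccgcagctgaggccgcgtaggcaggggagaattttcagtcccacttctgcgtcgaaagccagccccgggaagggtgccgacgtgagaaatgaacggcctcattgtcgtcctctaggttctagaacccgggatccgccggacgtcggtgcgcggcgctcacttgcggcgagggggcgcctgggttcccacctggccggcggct
Eif2ak2, chr17:78882558-78882822, minus strand: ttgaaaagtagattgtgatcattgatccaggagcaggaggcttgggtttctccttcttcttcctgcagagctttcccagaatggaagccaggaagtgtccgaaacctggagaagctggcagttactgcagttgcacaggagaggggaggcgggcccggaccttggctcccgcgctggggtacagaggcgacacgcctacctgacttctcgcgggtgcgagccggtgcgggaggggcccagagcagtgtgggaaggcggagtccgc

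Promoter windows of 250 bases before to 50 after the start were found for 32 of the 39 genes; Eif1a, Eif2b3, Eif3e, Eif3h, Eif3i, Eif3j2 and Eif6 had no entry. The E-box CACGTG, on either strand, lay in the windows of 6 of the 32 genes (18.8%), against 8.09% of 27025 genes with a window. The ETS-type motif CCGGAAG lay in 13 (40.6%), against 9.93% of all genes, and the interferon-type motif (GAAA, any 2 bases, GAAA) in 4 (12.5%), against 3.99%. Matches to different motifs did not overlap in the printed stretches. The E-box was found in Eif1b, Eif3a, Eif3f, Eif3k, Eif5a and Eif5a2. The interferon-type motif was found in Eif2s1, Eif2s3x, Eif2ak2 and Eif3a. The E-box of Eif3a and the interferon-type match of Eif2ak2 are in the windows but not within the printed stretches, so no capitals mark them. The 27025 genes were not limited to the 15122 tested here. A gene counted if any of its windows matched, and Eif5a had 6 windows and Eif2ak4 had 2. These are matches of letters and not measured binding.

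The comparison asked how initiation factor transcripts differ in crypt cells of Apln knockout mice. In knockout, 4 subunits of eIF3 (Eif3k, Eif3e, Eif3i and Eif3h) and Eif1ax were 1.48- to 1.97-fold higher, while Eif5b, Eif2ak2 and Eif3a were lower, and all 4 eIF2 kinases had values on the lower side. None of these passed the test, the quasi-likelihood test of edgeR, adjusted by Benjamini-Hochberg over 15122 genes. At an adjusted p under 0.05 it called 0 of the 38 tested initiation factor genes, against 26 of all genes (0.172%; 0.112% higher and 0.0595% lower), and the lowest adjusted p among the 38 was 0.0710. With no adjustment, p was under 0.05 for 7 genes that were higher (18.4% of the 38) and 3 that were lower (7.89%), against 7.53% and 7.66% of all genes. The DESeq2 Wald test called 6 of 37 (16.2%), Eif1ax, Eif3e, Eif3h, Eif3i, Eif3k and Eif5b. This compares with 5.36% of the 10288 genes that had a DESeq2 adjusted p. Without wild-type library 3, edgeR called Eif3e and Eif3k, 5.26% of the 38 against 2.27% of all genes; without any other single library it called 0. With no filter 3 of 39 were called (2.2% of 28564 genes). With at least 1 CPM in 3 libraries 2 of 38 were called (0.933% of 12544 genes). The replicate number as a block gave 2 of 38 (1.14% of 15122 genes).

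Most of the genes had slightly higher values in knockout. The log2 fold change, knockout over wild type, was above 0 for 28 of 38 (73.7%), against 49.5% of all genes, and its median was 0.19, against -0.01 over all genes tested. Without wild-type library 1 the median of the 38 was 0.13, and without knockout library 3 it was 0.24. In 12 of the 38 genes every knockout library was above every wild-type library (31.6%, against 11.3% of all genes), and in 3 every knockout library was below (7.89%, against 9.56%). Summed over the 39 genes, the level was 1588, 1566 and 1474 CPM in knockout libraries 1, 2 and 3, and 1387, 1372 and 1351 CPM in wild-type libraries 1, 2 and 3, so the groups did not overlap. In bulk RNA of this kind, a change in the number of cells of a type and a change in RNA per cell cannot be told apart.

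**Figure D1:**
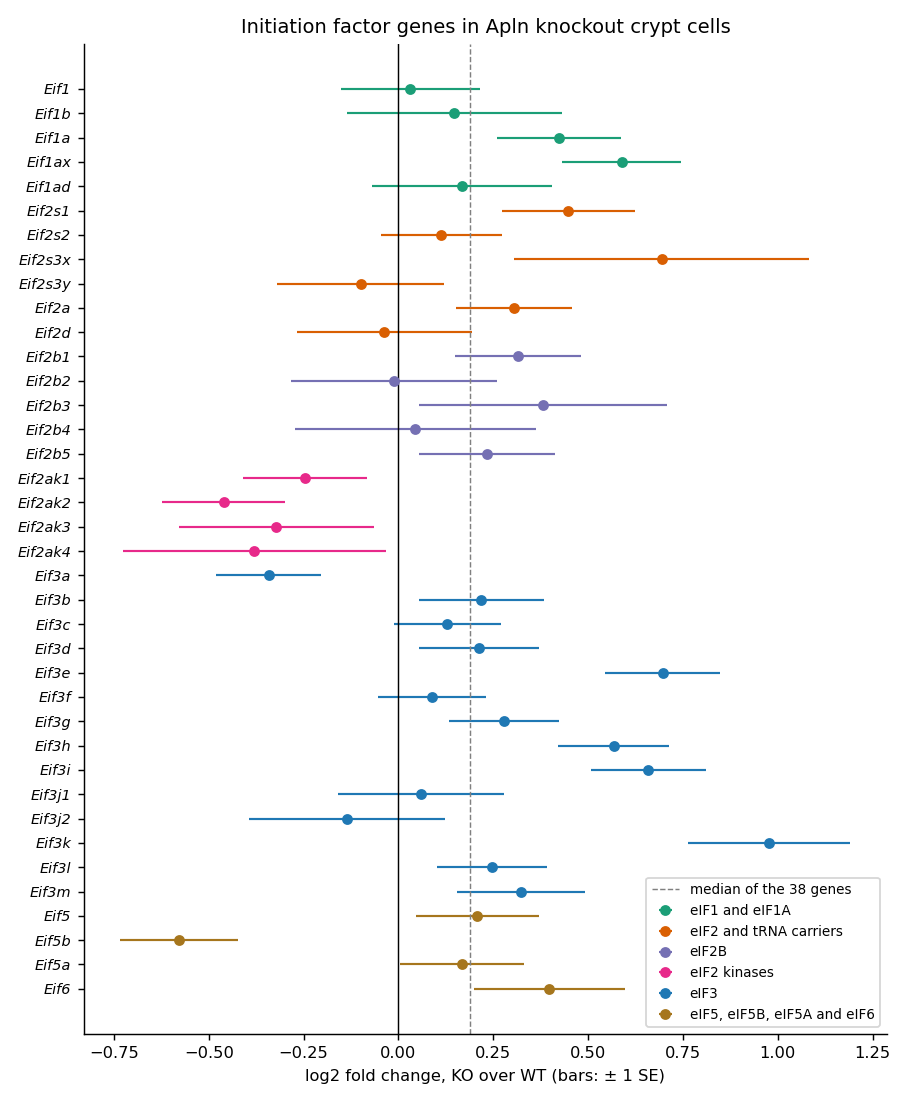
Log2 fold change, knockout over wild type, of the 38 tested initiation factor genes, coloured by role; points are estimates from 3 libraries per group, bars are 1 SE and the dashed line is the median of 0.19. Eif3k lies highest at 0.98, Eif5b lowest at -0.58, and the 4 kinases lie left of 0.

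eIF3 is the largest initiation factor, and its 14 genes gave both the widest differences and the lowest p. Of the 14, 12 had a positive log2 fold change (85.7%, against 49.5% of all genes; median 0.23). At an unadjusted p under 0.05, 4 were higher (28.6%, against 7.53% of all genes) and 1 lower (7.14%, against 7.66%), and 0 passed after adjustment. Eif3k (chromosome 7, 28971372 to 28981864, minus strand of mm10) encodes a small subunit of the eIF3 body. Its level was 47.2, 36.5 and 38.6 CPM in knockout libraries 1 to 3, against 20.8, 14.3 and 26.97 CPM in wild-type libraries 1 to 3. Every knockout library was above every wild-type library. The log2 fold change was 0.98 ± 0.21 (SE; 1.97-fold; edgeR adjusted p = 0.0729).

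Eif3e (chromosome 15, 43250058 to 43282719, minus strand) encodes a subunit of the body that carries a PCI domain. It was at 78.5, 72.7 and 67.1 CPM in knockout and 41.6, 41.4 and 51.6 CPM in wild type. The groups were well apart, with a log2 fold change of 0.70 ± 0.15 (SE; edgeR adjusted p = 0.0710). The 4 pseudogenes named Eif3s6, the former name of Eif3e, had 60 counts in knockout and 50 in wild type in all, against 4669 and 3888 counts of Eif3e itself. How multiply mapping reads were treated is not given in the notes.

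Eif3i (chromosome 4, 129591960 to 129600648, minus strand) encodes a WD-repeat subunit that binds eIF3b and eIF3g. It had 90.5, 78.5 and 80.6 CPM in knockout and 60.8, 46.9 and 50.4 CPM in wild type, with no overlap (log2 fold change 0.66 ± 0.15, SE; edgeR adjusted p = 0.0879). Eif3h (chromosome 15, 51786558 to 51865523, minus strand), whose protein has an MPN domain, had 80.6, 64.7 and 72.3 CPM in knockout and 52.8, 46.5 and 47.5 CPM in wild type. Again the groups did not overlap (log2 fold change 0.57 ± 0.15, SE; edgeR adjusted p = 0.109). Leaving out each library in turn kept the log2 fold change between 0.76 and 1.22 for Eif3k, 0.63 and 0.81 for Eif3e, 0.57 and 0.76 for Eif3i, and 0.49 and 0.65 for Eif3h.

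Eif3a (chromosome 19, 60761117 to 60790658, minus strand) encodes the largest subunit and the scaffold of the complex. It went the other way, with 168, 177 and 168 CPM in knockout and 210.4, 209 and 230.3 CPM in wild type. All knockout libraries lay below all wild-type libraries (log2 fold change -0.34 ± 0.14, SE; unadjusted p = 0.0291, edgeR adjusted p = 0.267). Since both directions occurred within one complex, shares that need no scaling were computed after these values had been seen. Eif3a took 19.5, 21.5 and 20.9% of all eIF3 subunit reads in knockout libraries 1 to 3, against 28.6, 29.4 and 31.7% in wild-type libraries 1 to 3. Eif3k, Eif3e, Eif3i and Eif3h each took a larger share in every knockout library than in any wild-type library, for Eif3e 9.14, 8.81 and 8.38% in knockout and 5.65, 5.82 and 7.11% in wild type. For each 100 Eif3a reads there were 28.1, 20.7 and 23.001 Eif3k reads in knockout and 9.90, 6.85 and 11.7 in wild type. The share of Eif3j2 was also lower in every knockout library, and those of the other 8 subunits overlapped between the groups. Shares of a common total are tied, so larger shares of some subunits lower those of others. They restate the values above, and neither the shares nor the Eif3k reads per Eif3a reads were corrected for transcript length.

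**Figure D2:**
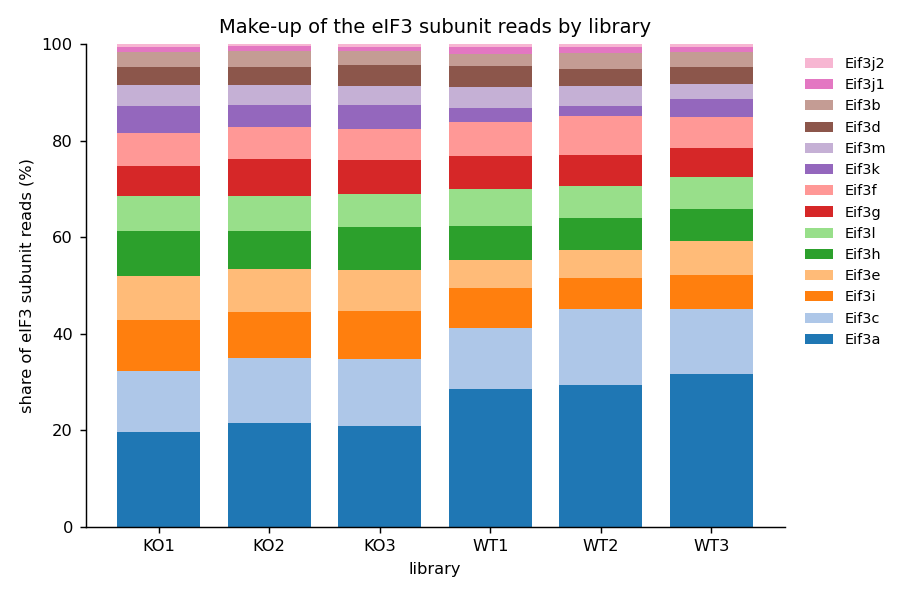
Share of each of the 14 subunits in the eIF3 subunit reads, in percent, stacked for each of the 3 knockout (KO) and 3 wild-type (WT) libraries. The lowest segment, Eif3a, takes 19.5 to 21.5% in knockout and 28.6 to 31.7% in wild type.

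The remaining subunits differed less. Eif3c, which with eIF3a forms the core of the body, had 110.3 ± 1.47 CPM in knockout and 101 ± 9.39 CPM in wild type (SD, n = 3 each). Eif3l (59.3 ± 3.95 and 49.96 ± 4.88 CPM), Eif3m (34.9 ± 2.88 and 27.9 ± 5.03 CPM) and Eif3f (55.4 ± 2.66 and 52.1 ± 4.84 CPM), which complete the body, had log2 fold changes of 0.25, 0.32 and 0.09. Eif3m did not overlap between the groups but had an edgeR adjusted p of 0.397. Eif3b, the scaffold of the module with eIF3g and eIF3i, was at 25.5 ± 1.97 CPM in knockout and 21.9 ± 3.11 CPM in wild type, and Eif3g at 57.3 ± 5.05 and 47.2 ± 3.51 CPM. Eif3g was another gene without overlap (log2 fold change 0.28 ± 0.14, SE; edgeR adjusted p = 0.391). Eif3d, a subunit that can bind the messenger's cap, was at 32.02 ± 1.57 and 27.6 ± 4.39 CPM.

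Levels of different subunits were compared per kilobase of the longest annotated transcript. In knockout the highest were Eif3h, at 56.0 ± 6.15 CPM per kb, and Eif3g, at 52.0 ± 4.58, which did not differ beyond their spread. Eif3i (35.8 ± 2.75), Eif3a (33.3 ± 1.03) and Eif3c (32.6 ± 0.435) followed close together. In wild type Eif3g (42.9 ± 3.19) and Eif3a (42.3 ± 2.32) came first, then Eif3h (37.8 ± 2.62), Eif3c (29.8 ± 2.78) and Eif3i (22.7 ± 3.11). Eif3a thus had rank 4 in knockout and rank 2 in wild type on this scale. Eif3k was at 22.9 ± 3.18 CPM per kb in knockout and 11.6 ± 3.55 in wild type, and Eif3e at 17.6 ± 1.38 and 10.9 ± 1.42. The loosely bound eIF3j had the lowest levels of all, with Eif3j2 at 1.76 ± 0.212 and 1.93 ± 0.0980 and Eif3j1 at 1.69 ± 0.242 and 1.62 ± 0.298 CPM per kb. A gene whose main transcript is shorter than its longest one is underrated on this scale.

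**Figure D3:**
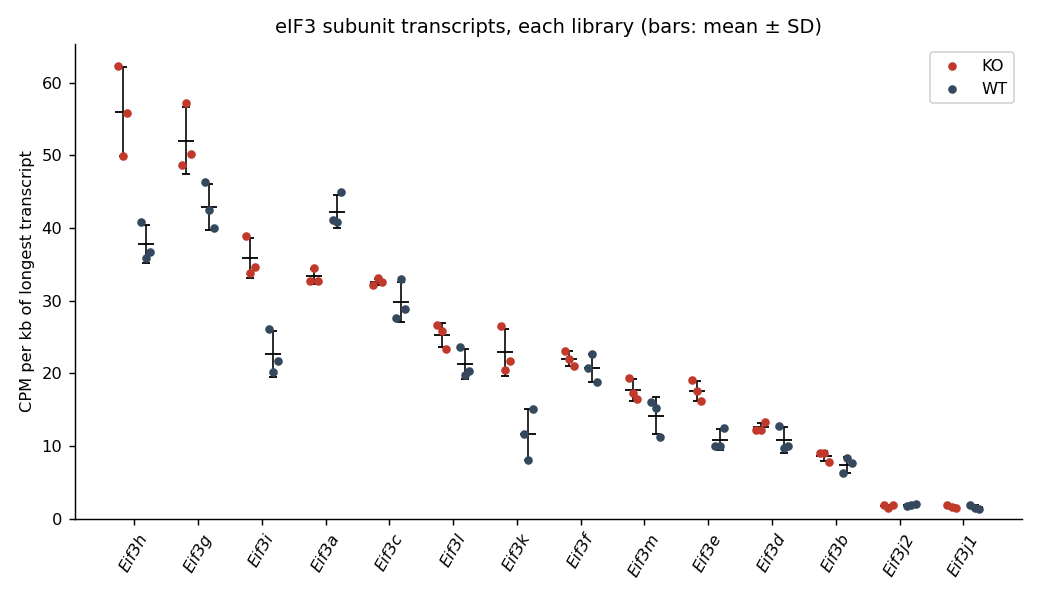
Level of each eIF3 subunit transcript in CPM per kilobase of its longest annotated transcript; points are single libraries, knockout (KO) left of wild type (WT) at each gene, bars are mean and SD of 3. Genes are ordered by the knockout mean, and Eif3a is the 1 gene whose wild-type points all lie above its knockout points.

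eIF1 and eIF1A bind the small subunit and guard the choice of the start codon. Eif1ax (X chromosome, 159372178 to 159389928, plus strand), the X-linked gene of eIF1A, had 37.6, 37.1 and 33.3 CPM in knockout and 27.7, 21.2 and 22.8 CPM in wild type. There was no overlap (log2 fold change 0.59 ± 0.16, SE; edgeR adjusted p = 0.116). Eif1a, its copy on chromosome 18, had 53.0, 68.1 and 51.4 CPM in knockout and 45.0, 46.4 and 37.2 CPM in wild type, again with no overlap (log2 fold change 0.42 ± 0.16, SE; edgeR adjusted p = 0.245). Both genes thus had higher values in knockout, though reads shared by these close copies are uncertain in their assignment. Eif1a took 61.3 ± 3.16% of the reads of the pair in knockout and 64.2 ± 3.82% in wild type (SD, n = 3 each, exact permutation p = 0.400, adjusted over 5 pairs 0.500).

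Eif1 was at 23.5, 35.9 and 30.7 CPM in knockout and 25.1, 30.03 and 33.1 CPM in wild type, and Eif1b, a second gene of eIF1, at 3.99, 5.77 and 4.02 and at 3.65, 3.75 and 5.01 CPM. Both overlapped between the groups, with log2 fold changes of 0.03 and 0.15 that changed sign without single libraries. Eif1b made up 13.3 ± 1.54% of the reads of that pair in knockout and 12.3 ± 1.08% in wild type (exact permutation p = 0.400, adjusted 0.500). Eif1ad, which encodes a protein related to eIF1A, was at 10.3 ± 2.86 CPM in knockout and 9.19 ± 1.38 CPM in wild type.

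eIF2 is made of an alpha, a beta and a gamma subunit. Eif2s1, the gene of the alpha subunit that the kinases phosphorylate, had 44.8, 59.1 and 41.1 CPM in knockout and 41.2, 32.5 and 32.6 CPM in wild type. The groups overlapped by a narrow margin (log2 fold change 0.45 ± 0.18, SE; edgeR adjusted p = 0.251). Eif2s2, of the beta subunit, was at 33.1 ± 3.66 CPM in knockout and 30.6 ± 3.91 CPM in wild type, a log2 fold change of 0.11.

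The gamma subunit has an X-linked and a Y-linked gene in mice, and the Y-linked one had more reads in all 6 libraries. Eif2s3x had 51, 70 and 50 counts in knockout and 29, 48 and 67 in wild type, and Eif2s3y had 255, 224 and 282 counts in knockout and 402, 274 and 406 in wild type. Eif2s3y therefore took 83.3, 76.2 and 84.9% of the reads of the pair in knockout and 93.3, 85.1 and 85.8% in wild type, so that the groups did not overlap. The difference, knockout minus wild type, was -6.58 percentage points (exact permutation p = 0.1, which is also the lowest value possible with 3 libraries a group, and 0.500 adjusted over 5 pairs). The log2 fold change was 0.69 ± 0.39 (SE) for Eif2s3x and -0.10 ± 0.22 (SE) for Eif2s3y. Scaled for library size, Eif2s3x was at 2.39, 3.23 and 2.36 CPM in knockout and 1.15, 1.65 and 2.11 CPM in wild type. These values did not overlap (edgeR adjusted p = 0.432), while those of Eif2s3y did. Reads shared by such close copies are uncertain in their assignment.

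Of the factors that bring tRNA to the ribosome by other routes, Eif2a, an eIF2-independent carrier, had 80.1, 65.2 and 67.7 CPM in knockout and 64.6, 57.0 and 50.97 CPM in wild type. It did not overlap between the groups (log2 fold change 0.30 ± 0.15, SE; edgeR adjusted p = 0.378). Eif2d, which acts in ribosome recycling and reinitiation, was at 9.72 ± 1.78 CPM in knockout and 9.99 ± 2.26 CPM in wild type.

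eIF2B reloads eIF2 with GTP and is the target through which phosphorylated eIF2 acts. The median log2 fold change over its 5 genes was 0.23, and 0 of them had an unadjusted p under 0.05, against 15.2% of all genes. Eif2b1 (22.7 ± 3.11 CPM in knockout, 18.2 ± 1.35 CPM in wild type), of the alpha subunit, and Eif2b5 (12.1 ± 0.640 and 10.3 ± 0.0564 CPM), of the catalytic epsilon subunit, did not overlap between the groups. Their edgeR adjusted p were 0.402 and 0.582. Both were higher in every knockout library, which held for 2 of the 5 genes (40%), against 11.3% of all genes. Eif2b2 (9.89 ± 2.27 and 9.95 ± 3.46 CPM), Eif2b3 (3.72 ± 0.483 and 2.85 ± 0.822 CPM) and Eif2b4 (4.24 ± 0.632 and 4.10 ± 1.55 CPM), of the beta, gamma and delta subunits, overlapped.

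The 4 eIF2 kinases each answer a different stress. All 4 had negative log2 fold changes (median -0.35), while 49.5% of all genes had positive ones. Their summed level was 43.8, 47.3 and 46.5 CPM in knockout and 59.4, 55.2 and 61.5 CPM in wild type. Eif2ak2 (chromosome 17, 78852564 to 78882573, minus strand) encodes PKR, the interferon-induced kinase activated by double-stranded RNA. It had 16.98, 20.9 and 19.7 CPM in knockout and 23.5, 28.9 and 26.8 CPM in wild type. The groups did not overlap (log2 fold change -0.46 ± 0.16, SE; unadjusted p = 0.0146, edgeR adjusted p = 0.214).

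Eif2ak1, the haem-regulated kinase HRI, had 17.9, 19.4 and 19.1 CPM in knockout and 25.2, 19.2 and 22.6 CPM in wild type, overlapping only through wild-type library 2 (log2 fold change -0.25 ± 0.16, SE). Eif2ak3, which encodes PERK, the kinase of endoplasmic reticulum stress, was at 5.30, 3.97 and 4.58 CPM in knockout and 6.03, 4.72 and 6.56 CPM in wild type (log2 fold change -0.32 ± 0.26, SE). Eif2ak4, which encodes GCN2, the kinase activated when amino acids are short, was at 3.61, 3.00 and 3.07 CPM in knockout and 4.64, 2.34 and 5.61 CPM in wild type (log2 fold change -0.38 ± 0.35, SE). These 3 genes overlapped between the groups, with edgeR adjusted p of 0.523, 0.598 and 0.653. Each kinase kept a negative log2 fold change under every alternative run, and after correction for transcript length and GC content the median of the 4 was -0.22.

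**Figure D4:**
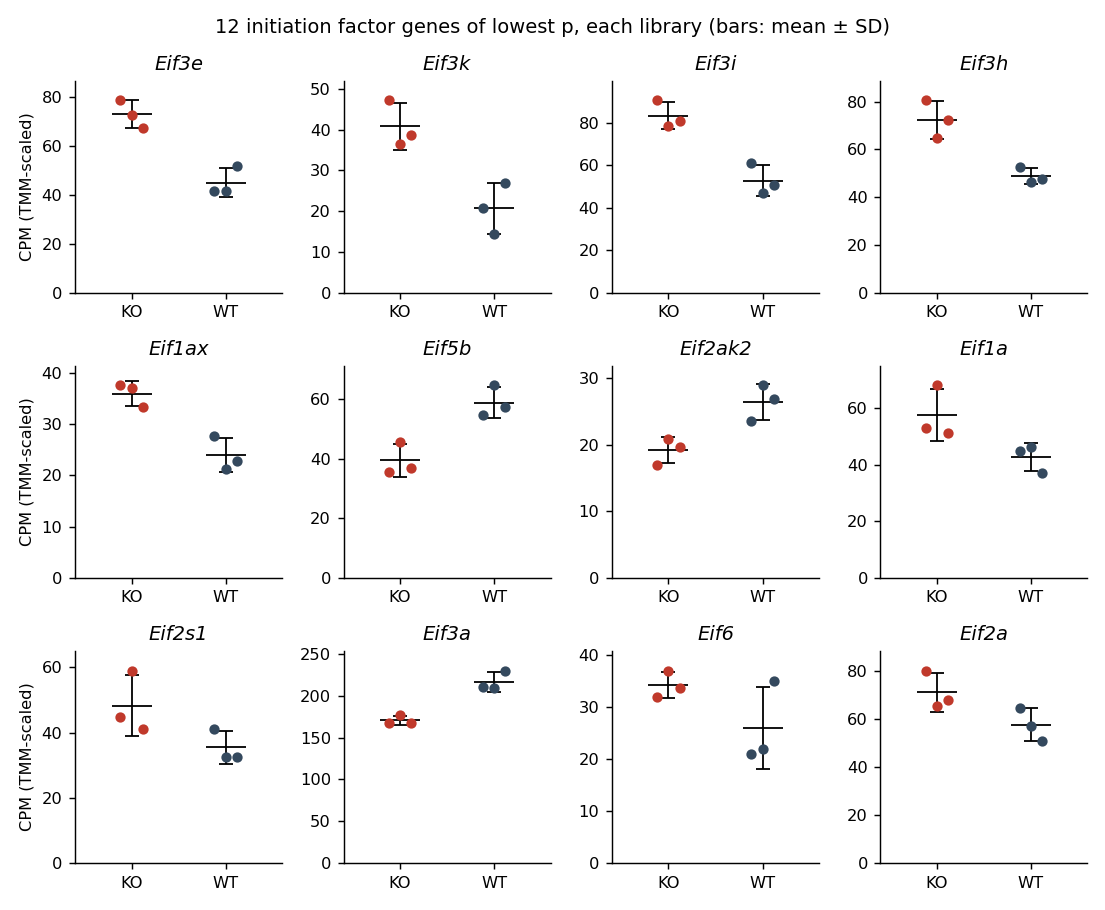
CPM (TMM-scaled) of the 12 initiation factor genes of lowest p in each of 3 knockout (KO) and 3 wild-type (WT) libraries, in order of p; bars are mean and SD, and each axis starts at 0. Eif5b, Eif2ak2 and Eif3a are lower in all knockout libraries, and Eif2s1 and Eif6 overlap between the groups.

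The late steps and the factors around them were mixed. Eif5b (chromosome 1, 37998010 to 38055579, plus strand), the GTPase that joins the large subunit, had 35.6, 45.8 and 36.95 CPM in knockout and 54.8, 64.7 and 57.3 CPM in wild type. It was the gene furthest below 0 among the 38, with no overlap between the groups (log2 fold change -0.58 ± 0.15, SE; 1.49-fold lower; edgeR adjusted p = 0.116). Exons of Eif5b overlap exons of Rev1 on the other strand over 1643 bases, and whether the counting used strand is not stated. Exons of another annotated gene overlap those of 15 of the 39 genes, including Eif2ak1, Eif2ak2, Eif1b, Eif3j1 and Eif6.

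Eif5, the GTPase-activating protein of eIF2, was at 137 ± 19.2 CPM in knockout and 119 ± 15.3 CPM in wild type. Eif6, which keeps free large subunits apart from small ones, had 31.98, 37.005 and 33.7 CPM in knockout and 20.9, 21.97 and 35.1 CPM in wild type. Wild-type library 3 lay within the knockout range, and the log2 fold change of Eif6 was 0.40 ± 0.20 (SE; edgeR adjusted p = 0.374). Without that library it was 0.68, with an edgeR adjusted p of 0.0541.

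Eif5a encodes the hypusine-bearing factor that helps ribosomes over difficult peptide bonds. It had 100.03, 88.4 and 80.8 CPM in knockout and 70.6, 95.2 and 73.8 CPM in wild type, with overlap (log2 fold change 0.17 ± 0.16, SE). Its second gene Eif5a2 was close to absent, with 2, 2 and 1 counts in knockout and 7, 1 and 1 in wild type. Eif5a2 made up 0.0855 ± 0.0240% of the reads of the pair in knockout and 0.157 ± 0.204% in wild type (exact permutation p = 1, adjusted 1). The remaining pair was Eif3j1 and Eif3j2, and the share of Eif3j2 in the pair overlapped between the groups. Eif3j1 had 10.4, 9.18 and 7.80 CPM in knockout and 10.6, 7.92 and 7.76 CPM in wild type, and Eif3j2 had 4.50, 3.60 and 4.44 and 4.32, 4.68 and 4.76 CPM. Eif3j2 was 31.5 ± 4.23% of the pair in knockout and 34.7 ± 5.03% in wild type (exact permutation p = 0.400, adjusted 0.500). The lowest p possible with 3 libraries a group is 0.1, so likeness cannot be read from this test.

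The log2 fold changes of all genes varied with transcript length. Over 15111 tested genes with a length, Spearman's rho between log2 fold change and the length of the longest transcript was -0.26, and over the 38 initiation factor genes it was -0.33; genes are not independent replicates. Eif5b (7797 bases) and Eif3a (5125) were lower in knockout, and Eif3h (1295), Eif3k (1782), Eif3e (4123) and Eif1ax (5172) were higher. After a correction of each library for length and GC content the log2 fold changes were 0.90 for Eif3k, 0.67 for Eif3e, 0.58 for Eif3i, 0.42 for Eif3h, 0.65 for Eif1ax, -0.41 for Eif5b, -0.41 for Eif2ak2 and -0.25 for Eif3a. The median of the 38 was then 0.15, and 8 had an unadjusted p under 0.05 (21.1%, against 11.8% of all genes). Eif3a (edgeR unadjusted p = 0.096) and Eif1a (0.0639) were no longer among them.

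**Figure D5:**
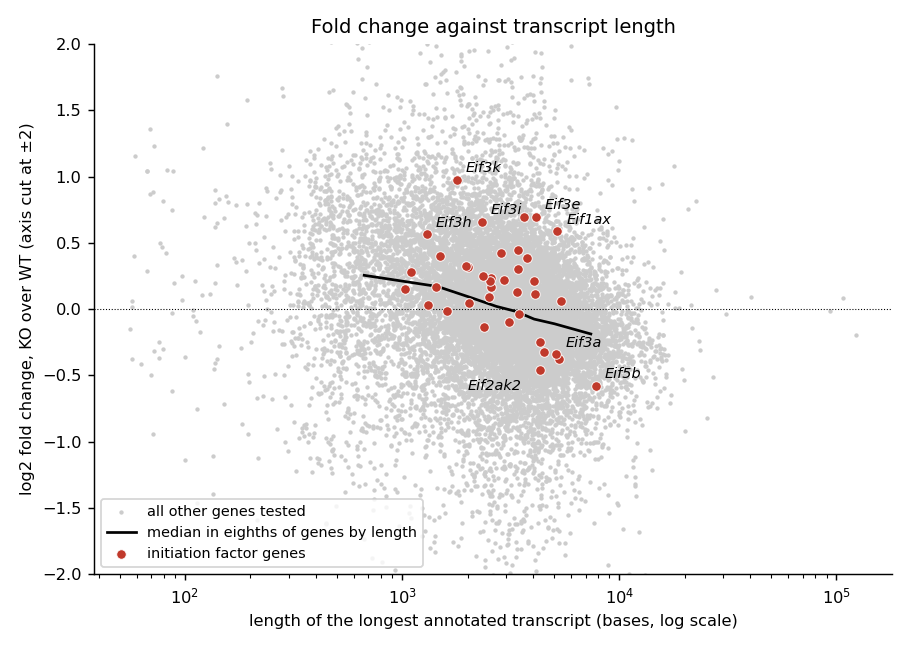
Log2 fold change, knockout over wild type, against the length of the longest annotated transcript on a log scale, for all genes tested (grey; values beyond 2 are off the axis) and the 38 initiation factor genes (red). The line joins medians in eighths of all genes by length, which run from 0.25 for the shortest to -0.19 for the longest.

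Among marker lists of crypt cell types, the summed level of the 4 genes of dividing cells was 376 to 440 CPM in knockout and 494 to 587 CPM in wild type, that of the 6 Paneth cell genes 1052 to 2497 and 632 to 984 CPM, that of the 7 enteroendocrine genes 456 to 631 and 799 to 1061 CPM, and that of the 6 tuft cell genes 24.9 to 60.4 and 75.1 to 104 CPM. At an unadjusted p under 0.05, 1 of the 4 dividing cell genes was lower while the other 3 had log2 fold changes above 0, 4 of the 6 Paneth genes were higher, and 4 of 7 enteroendocrine and 5 of 6 tuft genes were lower, against 7.53% of all genes higher and 7.66% lower. None of these markers was at 0 in either group. The summed levels of the stem cell, goblet cell, enterocyte and stromal lists overlapped between the groups. The part of cell make-up in the initiation factor values was not tested.

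Other genes of the pathway were read from the same fit. Of 18 partners of initiation and the ribosome, 0 passed, against 0.172% of all genes. At an unadjusted p under 0.05, 2 were higher and 2 lower, near the shares of all genes (7.53% and 7.66%), and the median log2 fold change was -0.00. Larp1, whose protein binds the start of messengers that carry a pyrimidine tract, was at 69.8 ± 2.56 CPM in knockout and 109 ± 16.6 CPM in wild type (log2 fold change -0.65 ± 0.15, SE; edgeR adjusted p = 0.0926). Bzw1 (120.4 ± 11.8 and 88.8 ± 5.71 CPM) and Bzw2 (17.7 ± 0.324 and 12.4 ± 0.486 CPM), which encode proteins that mimic eIF5, had log2 fold changes of 0.44 and 0.51 with edgeR adjusted p of 0.186 and 0.175. Hnrnpd, an RNA-binding protein gene, was at 63.9 ± 3.90 and 82.8 ± 8.13 CPM. Larp1, Bzw1, Bzw2, Hnrnpd and Ybx1 did not overlap between the groups. Every knockout library was above every wild-type library for 3 of the 18 partners (11.3% of all genes). Every knockout library was below for 2 of them (9.56% of all genes).

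The enzymes that make hypusine on eIF5A, Dohh (3.81 ± 1.36 CPM in knockout, 2.99 ± 0.742 CPM in wild type) and Dhps (2.95 ± 0.990 and 2.48 ± 0.838 CPM), overlapped between the groups. Of 10 regulators of eIF2 phosphorylation, 0 passed. At an unadjusted p under 0.05, 1 was higher and 1 lower, near the shares of all genes (7.53% and 7.66%), and the median log2 fold change was 0.09. Gcn1l1, the activator of GCN2, was at 15.9 ± 1.012 CPM in knockout and 21.1 ± 0.506 CPM in wild type, and the phosphatase gene Ppp1ca at 61.7 ± 4.65 and 45.5 ± 9.42 CPM, with edgeR adjusted p of 0.242 and 0.246. Ppp1r15b, a regulator of eIF2 dephosphorylation, was at 44.5 ± 2.44 and 38.3 ± 5.27 CPM, and the phosphatase gene Ppp1cb at 51.7 ± 7.22 and 46.8 ± 6.68 CPM, both with overlap.

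Of 25 tested target genes of the integrated stress response, the programme that follows eIF2 phosphorylation, 0 passed. The log2 fold change was above 0 for 10 of the 25, against 49.5% of all genes, and its median was -0.11. At an unadjusted p under 0.05, 4 of the 25 were lower, against 7.66% of all genes, and 0 were higher, against 7.53%. The 4 were Wars (26.7 ± 3.32 CPM in knockout, 39.4 ± 6.40 CPM in wild type), Vldlr (2.11 ± 0.813 and 4.62 ± 1.26 CPM), Atf5 (6.05 ± 1.27 and 10.9 ± 4.72 CPM) and Shmt2 (19.3 ± 1.30 and 27.4 ± 6.61 CPM). Their edgeR adjusted p were 0.155 to 0.238. Every knockout library was above every wild-type library for 1 of the 25, Cebpg (11.3% of all genes). Every knockout library was below for 5 (9.56% of all genes). Atf4, the transcription factor at the head of the programme, was singled out after its values had been seen and was at 43.5 ± 3.84 CPM in knockout and 37.3 ± 4.05 CPM in wild type, with overlap.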

How the data were processed

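RNA of sorted crypt epithelial cells from 3 Apln-/- and 3 wild-type samples was amplified (Ovation Pico WTA System V2) and made into libraries with the Nextera DNA Flex Kit, per the labels' protocols. Per the submitters' processing notes, STAR 2.6.1 and HTSeq were used with mm10. Annotation release and strand setting were not given in the sources used here. Values in the deposited table are raw counts of reads per Ensembl gene, not normalized by the authors, with 0 columns without a sample. GENCODE M21, on the same build, gave symbols for 28551 of the 28564 identifiers, positions, longest transcript lengths and GC contents.

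In R 4.3.3 with edgeR 4.0.16, filterByExpr (count minimum 10, total minimum 15) kept 15122 genes, libraries were scaled by TMM, and knockout was compared with wild type by glmQLFit and glmQLFTest without covariates, adjusted by Benjamini-Hochberg over all genes tested (threshold 0.05). SE are the log2 fold change over the square root of F. Paralogue shares were compared by two-sided exact permutation. Other settings tried were the DESeq2 1.42.0 Wald test, scaling by DESeq2 size factors or by upper quartiles, 2 other filters, the replicate number as a block, a length and GC correction by splines with 4 degrees of freedom each, removal of the 5 most abundant entries, and each library left out. The test and the correction were run on simulated counts with a common spread for all genes. Changes simulated for the test were larger than that of any initiation factor gene. The check therefore does not cover differences of the sizes reported here.

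The genes, the lists and the rule for genes given in full (the 12 of lowest p, the paralogue pairs and the kinases, with up to 4 genes of lowest p from each other list) were chosen with earlier results of these data known. Libraries of a group differed by a chi-square of 7.60 to 54.8 per degree of freedom, so none was a copy of another. The labels call the samples biological replicates and do not say whether each is 1 mouse, so p-values measure the spread between these samples. Floors of 3 counts (0.0946 to 0.142 CPM) hold for counting error alone, as PCR reads lacking molecular identifiers are not independent molecules.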

Additional observations from a re-analysis of the deposited data

How the results depend on the processing

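The count of initiation factor genes past the adjusted threshold was 0 of 38 in edgeR and remained 0 with DESeq2 size factors, upper-quartile scaling, the length and GC correction, and removal of the 5 most abundant entries. It was 6 with the DESeq2 Wald test and 0 to 2 without single libraries. With no filter it was 3 (Eif3e, Eif3i and Eif3k), where 2.2% of 28564 genes were called. With at least 1 CPM in 3 libraries it was 2 (Eif3e and Eif3k), where 0.933% of 12544 genes were called. With the replicate number of the sample titles as a block it was 2 (Eif3i and Eif3k; 1.14%). Same-numbered libraries share only a number: their deviations from the group means correlated at 0.0109 to 0.0569, and knockout library 3 correlated best with wild-type library 1. The columns of knockout libraries 1, 2 and 3 are named KO1, KO3 and KO4, so numbers by column name pair only 2 libraries a group, with correlations of 0.0406 and -0.00994. Over all genes the count was 26, against 1 with DESeq2 size factors, upper-quartile scaling, the length and GC correction or removal of the 5 most abundant entries, 551 with DESeq2, 629 with no filter, 117 with at least 1 CPM in 3 libraries, 173 with the replicate block and 0 to 358 without single libraries. The cause of these moves was not tested. The number of initiation factor genes at an unadjusted p under 0.05 stayed at 8 to 11 under the 14 alternatives. The median log2 fold change of the 38 lay between 0.15 and 0.21 in the alternatives that kept all libraries and between 0.13 and 0.24 without single libraries. Of the 38 genes, 30 kept 1 sign under all 14 alternatives; the others were Eif1, Eif1b, Eif1ad, Eif2s3y, Eif2d, Eif2b2, Eif2b4 and Eif3j1. The share of Eif5a2 in its pair changed direction without wild-type library 1, which held 7 of its 9 wild-type counts. At 5144725 to 7616648 counts outside the most abundant entries and 3 libraries a group, SE of the log2 fold change were 0.14 to 0.39. Differences of that size were not detectable, and larger ones also went uncalled. Eif3k, at 0.98 with an SE of 0.21, had an edgeR adjusted p of 0.0729.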
